A study of Mus musculus with 48 samples.

Results

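Glut cells are the cells of the embryonic hypothalamus that were read as glutamatergic only, and their gene expression was compared between mutant and control mouse embryos at embryonic day E18.5. A cell was taken when it held at least 2000 UMIs, at least 1 UMI of *Slc17a6* and 0 UMIs of *Slc32a1*. A UMI is a tag that marks 1 captured transcript molecule, so that amplified copies are counted once. *Slc17a6* encodes the vesicular glutamate transporter of most hypothalamic excitatory neurons, and *Slc32a1* encodes the vesicular transporter for GABA and glycine. Cells in which 3 or more of 9 genes of vessels, connective tissue and immune cells were detected (*Cldn5*, *Pecam1*, *Flt1*, *Col1a1*, *Col1a2*, *Col3a1*, *C1qa*, *C1qb* and *Csf1r*) were left out. The cells were thus chosen by their measured UMIs of these genes. The rule gave 4561 Glut cells among 14121 cells, of which 2472 came from control and 2089 from *Eed-cKO* embryos.

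All embryos were homozygous for a floxed allele (*Eed fl/fl*) in which loxP sites surround exons 3 to 6 of *Eed*, on a mixed B6:129S1 background. The 9 *Eed-cKO* embryos (5 female, 4 male, 26 libraries) also carried *Sox1-Cre*, a Cre recombinase placed in the *Sox1* gene that acts in the early central nervous system, while the 6 control embryos (2 female, 4 male, 22 libraries) had no Cre. An embryo gave up to 4 libraries, so counts were summed per embryo and the embryo was the replicate. By the paper's account each hypothalamus was cut into pieces ahead of dissociation. Whether a library held a single piece is not stated. The first part of a library's name, read here as the litter, gave 4 control and 6 *Eed-cKO* litters with no litter of both genotypes, so litter and genotype cannot be told apart. By the paper's account *Sox1-Cre* does not reach non-neural cells such as those of vessels and blood. Whether those cells kept *Eed* was not measured here.

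*Eed* is a core subunit of polycomb repressor complex 2 (PRC2), which places the repressive mark H3K27me3 on histone H3. The mark keeps developmental regulators silent in tissues where they are not used, and *Hox* genes in the forebrain are the textbook case. Polycomb repressor complex 1 (PRC1) binds the mark and compacts chromatin. Glutamatergic neurons of the hypothalamus include the melanin-concentrating hormone, hypocretin, corticotropin-releasing hormone and oxytocin cells, which steer feeding, arousal, stress and social behaviour.

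The starts of several genes that the results turn on are shown first, since PRC2 is known to gather at starts that are rich in CpG dinucleotides. The sequences are from RefSeq on GRCm38.p6, run 5′ to 3′ on the strand of the gene from 250 bases before to 50 bases after its start, and have each CpG in capitals. Of 27025 promoter windows of this length, 74.8% held fewer CpG than the 22 of *Hoxd10* and the 22 of *Tal1*, 73.0% fewer than the 21 of *Gad1*, 41.8% fewer than the 6 of *Myo7a* and 30.3% fewer than the 4 of *Hoxa9*. The median was 8 CpG over all windows, 22 over the 10995 windows matched to genes tested here, 21 over windows of genes called higher and 17.5 over 16 windows of tested *Hox* genes, so *Hoxd10* and *Tal1* lay at the median of the genes tested. *Hoxd10*, *Hoxa9* and *Tal1* were silent or nearly so in control Glut cells and were found in every *Eed-cKO* embryo, *Gad1* is a gene of GABA synthesis that rose in them, and *Myo7a* had the largest fall among genes whose embryos did not overlap. For *Hoxc10*, *Hoxb13* and *Vax2* no window was printed. A CpG count describes these bases, and H3K27me3 itself was not measured in these files.
*Hoxd10*, chr2:74691641-74691940, + strand: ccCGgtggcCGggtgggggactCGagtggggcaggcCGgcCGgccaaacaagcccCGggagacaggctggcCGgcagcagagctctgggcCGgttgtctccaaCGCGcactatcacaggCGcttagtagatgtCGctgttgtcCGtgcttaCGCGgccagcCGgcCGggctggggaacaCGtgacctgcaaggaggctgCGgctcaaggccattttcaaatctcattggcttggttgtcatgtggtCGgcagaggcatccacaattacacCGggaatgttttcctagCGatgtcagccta
*Hoxa9*, chr6:52227321-52227620, - strand: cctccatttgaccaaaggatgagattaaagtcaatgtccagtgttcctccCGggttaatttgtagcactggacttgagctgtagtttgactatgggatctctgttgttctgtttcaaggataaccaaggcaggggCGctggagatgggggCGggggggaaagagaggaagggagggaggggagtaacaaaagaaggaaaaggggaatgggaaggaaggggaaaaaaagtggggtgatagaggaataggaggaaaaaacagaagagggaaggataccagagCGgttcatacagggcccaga
*Tal1*, chr4:115057561-115057860, + strand, 1 of 2 windows: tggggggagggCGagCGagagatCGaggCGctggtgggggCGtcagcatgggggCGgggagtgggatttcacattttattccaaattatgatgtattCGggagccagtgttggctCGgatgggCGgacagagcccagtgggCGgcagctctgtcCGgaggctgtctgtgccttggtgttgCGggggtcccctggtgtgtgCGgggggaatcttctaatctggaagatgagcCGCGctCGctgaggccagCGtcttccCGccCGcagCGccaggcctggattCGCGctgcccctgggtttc
*Gad1*, chr2:70561879-70562178, + strand: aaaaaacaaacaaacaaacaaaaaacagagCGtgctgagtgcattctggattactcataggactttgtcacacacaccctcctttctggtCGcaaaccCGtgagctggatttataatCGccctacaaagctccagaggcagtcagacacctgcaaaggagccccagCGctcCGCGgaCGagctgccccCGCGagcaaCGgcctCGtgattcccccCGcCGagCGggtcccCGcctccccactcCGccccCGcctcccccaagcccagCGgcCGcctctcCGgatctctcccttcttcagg
*Myo7a*, chr7:98119444-98119743, - strand, 1 of 2 windows: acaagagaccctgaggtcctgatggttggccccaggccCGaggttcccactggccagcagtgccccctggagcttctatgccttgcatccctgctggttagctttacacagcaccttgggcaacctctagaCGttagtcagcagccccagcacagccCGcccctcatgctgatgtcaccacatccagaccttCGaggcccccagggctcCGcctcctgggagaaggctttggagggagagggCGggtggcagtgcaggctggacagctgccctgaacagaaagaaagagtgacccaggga

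The share of Glut cells is set by the rule itself and is given as a description. Its mean was lower in *Eed-cKO*, and the size and direction of the difference depended on how the classes were read. The share was taken among the 5674 control and 5431 *Eed-cKO* cells that had at least 2000 UMIs and were not left out. It was lowest at 40.4%, at the median 43.8% and highest at 46.5% in control embryos, and 33.5%, 39.8% and 44.2% in *Eed-cKO* embryos, so the ranges overlapped. The mean was 43.5% ± 2.03 (SD, n = 6) in control and 38.5% ± 3.50 (SD, n = 9) in *Eed-cKO*. When each cell was thinned at random to 2000 UMIs before its class was read, the share was 31.3% ± 2.62 in control and 31.6% ± 3.21 in *Eed-cKO*, 0.308 points higher in *Eed-cKO*. Thinning also leaves fewer UMIs of both transporters to read. Among cells with at least 4000 UMIs the *Eed-cKO* mean minus the control mean was -6.93 points. With at least 2 *Slc17a6* UMIs asked for, it was -9.15 points. Over the same embryos GABA cells, with *Slc32a1* and no *Slc17a6*, went from 17.9 to 27.3% in control to 8.11 to 12.4% in *Eed-cKO*, and Glut/GABA cells, with both genes, from 3.42 to 10.99% to 13.2 to 24.6%. These classes were made by the same genes.

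The *Eed-cKO* cells lay closer to the edge of the rule than the control cells did. Exactly 1 *Slc17a6* UMI was found in 20.1% of control Glut cells (498 cells) and 32.5% of *Eed-cKO* Glut cells (678 cells), and the median was 4 UMIs against 2. Per embryo that share ran up to 30.6% in control, where the highest was control embryo 5, and from 26.0 to 41.2% in *Eed-cKO*. Just outside the rule, 151 control and 486 *Eed-cKO* cells held *Slc17a6* with exactly 1 *Slc32a1* UMI. Another 91 control and 99 *Eed-cKO* cells fell short of 2000 UMIs by at most 500 but otherwise met the rule, against 84 and 106 Glut cells that passed it by under 500, and 22 and 38 cells were left out at exactly 3 of the 9 genes, against 7 and 26 kept with 2. The summed level of *Slc17a6* chose the cells and was not tested. It was 603 to 713 CPM in control and 421 to 631 CPM in *Eed-cKO*.

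Depth and library size differed between genotypes and bear on every result below. The median Glut cell held 6743 UMIs and 3096 genes in control, and 5484 UMIs and 2789 genes in *Eed-cKO*. A control embryo gave 323 to 487 Glut cells with 2269935 to 3876605 UMIs, and an *Eed-cKO* embryo 53 to 357 Glut cells with 210635 to 2445375 UMIs, the lowest being *Eed-cKO* embryo 2, which had 1 library. One control library of embryo 5 stood apart with 1207 cells, against 465 in the next largest, and results without it are in the closing section. A total of 101 cell barcodes occurred in more than 1 library, at most 2 for any pair of libraries. For 7 barcodes the Glut cells alone occurred in more than 1 library. All 10 neuron markers listed were found, with a summed level of 9885 to 11364 CPM in control and 8893 to 10000 CPM in *Eed-cKO*. CPM is UMIs per 1000000 UMIs of the summed Glut cells of an embryo, scaled by the TMM factors of edgeR.

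**Figure D1:**
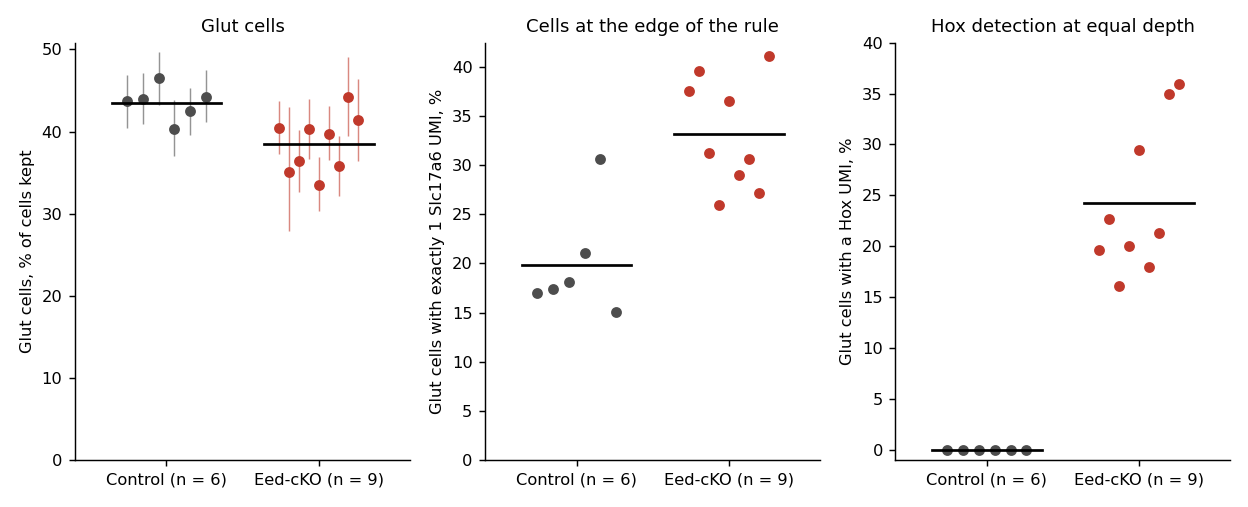
Each point is 1 embryo and the bars are means: Glut cells as a percent of the cells kept, with Wilson 95% binomial intervals (left), the percent of Glut cells with exactly 1 *Slc17a6* UMI (middle), and the percent of Glut cells with a UMI of any *Hox* gene after thinning to 2000 UMIs (right). The Glut share overlaps between genotypes, while the *Hox* share is 0 in all 6 control embryos and 16.1 to 35.9% in the 9 *Eed-cKO* embryos.

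Across all genes, 1475 of 14551 genes tested were called at an adjusted p under 0.05 (10.1%; edgeR quasi-likelihood test on sums per embryo, Benjamini-Hochberg), 794 higher in *Eed-cKO* (5.46%) and 681 lower (4.68%). The level of all 6 control embryos lay below that of all 9 *Eed-cKO* embryos for 106 genes (0.728%) and above it for 113 genes (0.777%). With library size in place of TMM the split was 1009 higher and 427 lower, and the median log2 fold change of all genes moved from 0.01 to 0.06. A sum over cells cannot tell fewer cells of a type from less RNA per cell, and this holds for each level below.

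*Eed* itself is the check of the labels, with a limit. Its level was 27.7 to 37.3 CPM in control (median 30.9) and 14.6 to 28.7 CPM in *Eed-cKO* (median 23.4), so the ranges overlapped. The log2 fold change was -0.43 ± 0.13 (SE; edgeR quasi-likelihood test, adjusted p = 0.0313). The call was lost without control embryo 2, 3 or 4 or *Eed-cKO* embryo 1, 5 or 7 (adjusted p 0.0520 to 0.0728), and in 9 of 19 other alternatives. These included DESeq2 (0.0527), library size in place of TMM (0.0591), litters as samples (0.0601) and the removal of doublet candidates (0.0678), and with cells thinned to 2000 UMIs the log2 fold change was -0.082 (edgeR adjusted p = 0.905). These are 3′ tag counts, so UMIs from the end of the transcript, which lies outside exons 3 to 6, say nothing of the deletion. On mm10 the gene spans chr7:89954654-89980983 on the minus strand and shares exon positions with the antisense gene *E230029C05Rik*, from which its reads cannot be told apart because the strand used in counting is not stated. The other PRC2 subunits were not called: *Suz12* had a log2 fold change of -0.02 ± 0.09, *Ezh1* of 0.16 ± 0.18 and *Ezh2* of 0.28 ± 0.13.

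Of the PRC1 genes, 2 of 19 rose and 1 fell, where 5.46% of all genes tested rose and 4.68% fell, and their median log2 fold change was 0.10 against 0.01 over all genes. With library size in place of TMM 5 of the 19 rose. *Bmi1*, a core PRC1 subunit that holds the Ink4a locus silent, was 66.0 to 90.3 CPM in control (median 79.9) and 123 to 209 CPM in *Eed-cKO* (median 179). The embryos did not overlap, and the level was 2.15-fold higher (log2 1.10 ± 0.10, adjusted p = 8.07e-09, edgeR quasi-likelihood test). *Cbx8*, a reader of the mark, rose from a median of 6.92 to 13.7 CPM (log2 0.85 ± 0.20, edgeR adjusted p = 0.00562). *Cbx6*, another reader, was at a median of 197 CPM in control and 158 CPM in *Eed-cKO* (log2 -0.33 ± 0.10, edgeR adjusted p = 0.0262), a call that was lost when control embryo 1, 2 or 4 or *Eed-cKO* embryo 6 was left out (adjusted p 0.0510 to 0.0730).

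*Hox* genes were found in Glut cells of every *Eed-cKO* embryo and were almost wholly silent in control. *Hox* genes set position along the body axis and are active in hindbrain and spinal cord, not in the forebrain. The list held 39 *Hox* genes, of which 34 were in the table and 28 passed the filter on low counts. All 28 rose, and 21 had embryos that did not overlap. Over the 34 genes, control Glut cells held 1 UMI and *Eed-cKO* Glut cells 3232 UMIs. The filter was passed only through the mutant cells, so the count of 28 is a description of the genes that passed and not a measure of support.

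The UMIs were spread unevenly over the *Hox* genes. The *Hoxc* genes held 1197 UMIs over 6 tested genes, the *Hoxa* genes 950 over 8, the *Hoxb* genes 641 over 7 and the *Hoxd* genes 444 over 7. *Hoxc10* was the highest, at 0 CPM in all 6 control embryos and 19.4 to 83.5 CPM in *Eed-cKO* (median 30.3), at least 199-fold higher (edgeR quasi-likelihood test, adjusted p = 4.60e-10). It shares exon positions on the same strand with *Hoxc5*, so their reads may be mixed. Bounds here set the control sum at 3 UMIs. *Hoxc13* followed at 13.7 to 41.8 CPM (median 26.2), at least 150-fold higher, and *Hoxb13* at 13.7 to 32.7 CPM (median 18.0), at least 116-fold higher, both at 0 in every control embryo. These 3 genes lie toward the posterior end of their clusters, but so do *Hoxa11*, *Hoxd11* and *Hoxd13*, whose *Eed-cKO* means were 3.50, 3.06 and 1.70 CPM, and *Hoxc12*, which held 2 UMIs and did not pass the filter. No order along the clusters was tested.

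The other *Hox* genes had lower medians. *Hoxa9*, whose start is printed above, was at 0 in control and 9.28 to 24.5 CPM in *Eed-cKO* (median 16.8), at least 99.5-fold higher. *Hoxa10* had 1 UMI in control embryo 1 and 234 in *Eed-cKO*, at 10.3 to 24.5 CPM (median 17.5), a ratio of 322 with a 95% counting interval of 57.2 to 12773. *Hoxd10* ran from 6.46 to 30.4 CPM, at least 72.5-fold higher. *Hoxc8* (5.61 to 23.5 CPM), *Hoxa7* (4.64 to 21.8 CPM), *Hoxa5* (6.59 to 18.6 CPM) and *Hoxb3* (4.99 to 17.5 CPM) were likewise at 0 in control and above 0 in all 9 *Eed-cKO* embryos. *Hoxa7* overlaps the antisense gene *Hoxaas3* and *Hoxb3* overlaps *Hoxb3os*. Over the 27 tested genes with no control UMI the bounds ran from 7.80-fold (*Hoxd3*) to 199-fold, with a median of 28.9-fold, and 21 of the 28 were found in all 9 *Eed-cKO* embryos. *Mira*, a long noncoding RNA gene, was also at 0 in control and 5.84 to 21.1 CPM in *Eed-cKO* (median 9.88), at least 71.1-fold higher.

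**Figure D2:**
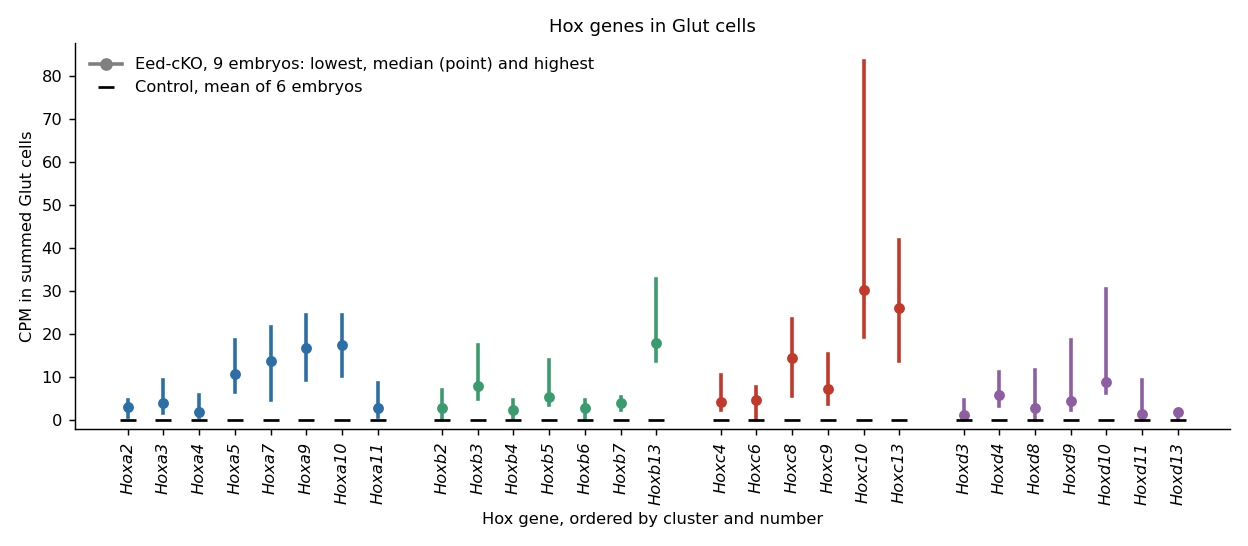
CPM of the 28 tested *Hox* genes in summed Glut cells, by cluster: the line runs from the lowest to the highest of 9 *Eed-cKO* embryos, the point is their median and the dash is the control mean of 6 embryos. *Hoxc10* reaches 83.5 CPM and *Hoxc13* 41.8 CPM, while the control dash lies at 0 for 27 genes and at 0.0519 CPM for *Hoxa10*.

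Within the *Eed-cKO* embryos only some Glut cells held a *Hox* UMI. With all cells thinned to 2000 UMIs, the share was 0% in each of the 6 control embryos (0 of 2472 cells, where 3 cells would be 0.121% and the exact 95% upper limit was 0.149%) and had a lowest value of 16.1%, a median of 21.3% and a highest of 35.9% in *Eed-cKO*. The mean was 24.2% ± 7.39 (SD, n = 9), and the difference had the smallest p that the 5005 splits of the embryos allow (two-sided exact permutation test, p = 0.0004, adjusted over 6 genes or groups of genes p = 0.0006). Embryos 8 and 9 of *Eed-cKO*, read as litter mates, were the highest at 35.0 and 35.9%. Without thinning the share was 32.9% ± 9.08. Among the 673 *Eed-cKO* Glut cells with a *Hox* gene at full depth, 469 held at least 2 different *Hox* genes, 203 held at least 5, and the most in 1 cell was 14. In 434 cells the genes came from at least 2 clusters and in 92 cells from all 4.

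Free RNA in the droplets can add UMIs to cells that do not make them. Cells left out for vessel, connective tissue or immune genes that held neither transporter serve as a comparison, since the paper takes non-neural cells as not reached by *Sox1-Cre*. Whether some of them had lost *Eed* was not tested. Among them 6.69% had a *Hox* UMI after thinning in *Eed-cKO* (19 of 284 cells, exact 95% interval 4.08 to 10.3%, median 4571.5 UMIs before thinning) and 0 of 159 in control. Left-out cells with a transporter UMI are not in that share. Over all left-out cells it was 13.6% in *Eed-cKO* (50 of 369 cells, interval 10.2 to 17.5%) and 0 of 197 cells in control. The pooled share of *Eed-cKO* Glut cells was 23.1% (482 of 2089 cells, interval 21.3 to 24.9%, median 5484 UMIs) and lay above both. At full depth it was 32.2%, against 14.8% of left-out cells with neither transporter and 26.8% of all left-out cells. The shares pool cells over embryos and were not tested against each other. Glut cells held *Hox* genes less often than the GABA cells of the same embryos: 24.2% ± 7.39 against 42.6% ± 5.59 (n = 9), lower in Glut cells in 8 of 9 embryos, by 18.4 points (two-sided exact permutation of signs, p = 0.0078). The exception was *Eed-cKO* embryo 8, with 35.0% of Glut and 33.3% of GABA cells. At full depth a GABA cell was shallower than a Glut cell, with a median of 4549 UMIs in *Eed-cKO*.

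Other regulators of hindbrain, midbrain and spinal cord rose as well, though not as a whole list. Of 31 tested posterior transcription factors 14 rose and 2 fell, where 5.46% of all genes tested rose and 4.68% fell. The median log2 fold change was 0.70 against 0.01 over all genes. Of the 31, 5 had no control UMI and passed the filter on low counts only through the mutant cells, so the count is a description. *Tal1*, a regulator of blood and of midbrain and spinal GABAergic neurons, had 0 to 1.205 CPM in control (median 0.796) and 45.7 to 97.5 CPM in *Eed-cKO* (median 58.6), with no overlap (log2 6.54 ± 0.30, edgeR adjusted p = 2.29e-14). *Gata3*, which acts with *Tal1* in those neurons, went from 0 to 1.77 CPM to 15.2 to 64.9 CPM (log2 6.11 ± 0.45, edgeR adjusted p = 4.26e-10; 6.96 without control embryo 4), and shares exon positions with *9230102O04Rik* and *Gm13256*. *Gata2* was at 0 in every control embryo and at 0 to 7.84 CPM in *Eed-cKO* (median 4.50), at least 30.3-fold higher. *Pou4f2*, a regulator of retinal ganglion and midbrain neurons, was at 0 in control and 3.09 to 20.02 CPM in *Eed-cKO*, at least 52.8-fold higher. These are regulators that control Glut cells hardly held at all.

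Some calls of the list rested on few UMIs. *Tlx1* (23 UMIs, *Eed-cKO* median 1.03 CPM, at least 10.6-fold higher) and *Pax8* (19 UMIs, median 0.976 CPM, at least 8.72-fold higher) were at 0 in control, found in 7 of 9 *Eed-cKO* embryos and highest in *Eed-cKO* embryo 8, at 6.96 CPM each. Both were called (edgeR adjusted p = 0.00329 for *Tlx1* and 0.00499 for *Pax8*). The falls were in *Gbx2*, a regulator of thalamus and anterior hindbrain, from 1.51 to 57.9 CPM (median 34.4) to 0 to 39.2 CPM (median 2.44), and in *Prdm13*, a spinal and hypothalamic regulator, from 3.55 to 11.6 CPM to 0 to 7.71 CPM. *Gbx2* was at 39.2 CPM in *Eed-cKO* embryo 8 and at most 3.50 CPM in the other 8 (log2 -2.40 ± 0.63, edgeR adjusted p = 0.0139), and without embryo 8 the log2 fold change was -3.83. With DESeq2 it was not called (adjusted p = 0.104). For *Prdm13* it was -1.60 ± 0.40 and, without *Eed-cKO* embryo 5, -2.29.

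Determinants of GABAergic fate in cerebellum and spinal cord were in part higher in Glut cells. *Tfap2a* rose from 0 to 2.71 CPM to 8.23 to 18.6 CPM with no overlap (log2 3.63 ± 0.37, edgeR adjusted p = 1.61e-07; 4.28 without control embryo 2). *Tfap2b* rose from 0 to 20.6 CPM (median 11.7) to 19.9 to 119 CPM (median 42.5), with overlap (log2 2.43 ± 0.42, edgeR adjusted p = 0.000363). *Pax2* had 3 control and 44 *Eed-cKO* UMIs, a ratio of 20.2 with a 95% counting interval of 6.47 to 102 (edgeR adjusted p = 0.000396), and all 3 control UMIs came from embryo 2. *Lhx5* was at a median of 25.1 CPM in control and 34.7 CPM in *Eed-cKO* and was not called (log2 0.36 ± 0.16, edgeR adjusted p = 0.144; 0.0320 without *Eed-cKO* embryo 8), nor was *Lhx9*, a regulator linked to hypocretin neurons, with medians of 64.6 and 13.2 CPM (log2 -1.32 ± 0.48, edgeR adjusted p = 0.0767). Without *Eed-cKO* embryo 8, where *Lhx9* stood at 125 CPM, *Lhx9* passed the test (log2 -2.22, edgeR adjusted p = 0.000214), and it also did without control embryo 2 or 6 (0.0263 and 0.0495).

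Among Glut cells thinned to 2000 UMIs, the share with *Tfap2b* was 0.265% ± 0.251 in control and 5.92% ± 3.64 in *Eed-cKO* (two-sided exact permutation test, adjusted p = 0.0006). The pooled 5.27% of *Eed-cKO* Glut cells (interval 4.35 to 6.31%) overlapped the 3.87% of left-out cells with neither transporter (interval 1.95 to 6.82%), and these pooled shares were not tested against each other. *Pax2* was found in 0.684% ± 0.429 of *Eed-cKO* Glut cells and in none of control (adjusted p = 0.00336, exact permutation test), and its pooled interval, 0.402 to 1.18%, also overlapped that of the left-out cells, 0.00891 to 1.95%. For *Lhx5* the shares were 4.997% ± 1.35 and 6.86% ± 2.44 (exact permutation test, p = 0.0975).

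Regulators of the hypothalamus and eye field showed more rises than falls, 13 and 3 of 44 (median log2 fold change 0.30). Over all genes tested, 5.46% rose and 4.68% fell. *Vax2*, a ventral regulator of eye and forebrain, was at 0 in all control embryos and 13.7 to 32.4 CPM in *Eed-cKO* (median 16.2), at least 112-fold higher (edgeR quasi-likelihood test, adjusted p = 2.93e-10). It passed the filter on low counts only through the mutant cells, so its place among the rises is a description. *Six6*, an eye field and pituitary regulator, rose from 3.31 to 8.78 CPM to 21.0 to 38.5 CPM (log2 2.11 ± 0.19, edgeR adjusted p = 1.82e-08), and *Meis1*, a cofactor of *Hox* proteins, from 2.38 to 9.17 CPM to 9.35 to 28.3 CPM (log2 2.21 ± 0.27, edgeR adjusted p = 3.15e-06). Neither gene overlapped between the genotypes. *Rax*, a regulator of the eye field and of tanycytes (9 and 36 UMIs, log2 2.28 ± 0.63, edgeR adjusted p = 0.0213), and *Lhx8*, a forebrain regulator (14 and 52 UMIs, log2 2.25 ± 0.57), rose on fewer UMIs. *Rax* was at 3.08 without control embryo 5 and lost its call without control embryo 3 or *Eed-cKO* embryo 5 (0.0507 and 0.0766), and *Lhx8* was at 3.03 without control embryo 4. *Foxd1* rose from a median of 1.01 to 9.35 CPM (log2 2.77 ± 0.44; 3.36 without control embryo 3). The falls were small: *Arnt2*, a partner of *Sim1*, by 0.29 on the log2 scale, *Sox14* by 0.93 and *Ebf2* by 0.80. The call of *Ebf2* (edgeR adjusted p = 0.0433) was lost when any 1 of control embryos 2, 3, 4 and 6 or of *Eed-cKO* embryos 1, 2, 4, 5, 6, 7 and 8 was left out (adjusted p 0.0516 to 0.151).

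Cell cycle inhibitors were among the rises: 4 of 7 tested rose and none fell (median log2 fold change 0.37), where 5.46% of all genes tested rose. *Cdkn2a* and *Cdkn2b* had no control UMI and passed the filter on low counts only through the mutant cells. *Cdkn2b*, an inhibitor of the G1 kinases beside the Ink4a locus, was at 0 in control and 4.04 to 15.7 CPM in *Eed-cKO* (median 6.86), at least 49.1-fold higher (edgeR adjusted p = 1.25e-07). *Cdkn2a* was at 0 in control and 0 to 7.82 CPM in *Eed-cKO*, at least 27.5-fold higher, and *Cdkn2c* had 2 control and 44 *Eed-cKO* UMIs, a ratio of 30.3 (95% counting interval 7.9 to 258). *Cdkn1b*, which is active in young neurons, was 73.4 to 102 CPM in control and 85.3 to 136 CPM in *Eed-cKO* (log2 0.37 ± 0.10, edgeR adjusted p = 0.0184). That call was lost without control embryo 2 or 6 or *Eed-cKO* embryo 4 (adjusted p 0.0513 to 0.0543).

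GABAergic genes rose in the Glut cells, although these cells were chosen for having no *Slc32a1* UMI. Of 15 tested genes of the GABAergic programme 5 rose and none fell, where 5.46% of all genes tested rose. Their median log2 fold change was 0.62, and 10 had no call. *Gad1*, which makes GABA from glutamate, was 33.0 to 78.3 CPM in control (median 42.8) and 144 to 339 CPM in *Eed-cKO* (median 223), with no overlap (log2 2.13 ± 0.18, edgeR adjusted p = 6.31e-09). *Gad2*, its partner at synapses, was 19.5 to 40.4 CPM in control and 49.2 to 95.8 CPM in *Eed-cKO*, again without overlap (log2 1.44 ± 0.17, edgeR adjusted p = 2.38e-06). *Dlx2* (log2 1.55 ± 0.33) and *Dlx5* (1.397 ± 0.36), forebrain regulators of GABAergic fate, and the noncoding RNA gene *Dlx6os1* (1.56 ± 0.41) rose with overlapping embryos. The call of *Dlx6os1* was lost without *Eed-cKO* embryo 4 (edgeR adjusted p = 0.0510). At 2000 UMIs per cell the share of Glut cells with *Gad1* was 7.59% ± 2.61 in control and 24.4% ± 5.30 in *Eed-cKO*, and with *Gad2* 4.81% ± 1.29 and 13.3% ± 3.86 (exact permutation test, adjusted p = 0.0006 for each). In left-out cells with neither transporter the pooled *Eed-cKO* shares were 4.93% for *Gad1* and 2.46% for *Gad2*. Over all left-out cells they were 8.40 and 5.42%, and over Glut cells 23.2 and 13.1%. The cells with neither transporter were chosen to hold no *Slc32a1* UMI. All these shares pool cells over embryos and were not tested against each other.

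A GABA cell whose *Slc32a1* was missed and which had a stray *Slc17a6* UMI would enter the rule. Cells with at least 2 *Slc17a6* UMIs were therefore tested alone. That limit cannot remove a Glut/GABA cell whose *Slc32a1* was missed, because such a cell makes *Slc17a6* itself. *Gad1* then had a log2 fold change of 2.28 and *Gad2* of 1.64. The part of missed *Slc32a1* UMIs in these levels was not tested. Of 13 tested genes of the glutamatergic programme other than *Slc17a6*, 1 rose and 1 fell (median log2 fold change 0.15). Over all genes tested, 10.1% were called. *Slc1a1*, a neuronal glutamate transporter, fell by 0.38 on the log2 scale (edgeR adjusted p = 0.00938), and *Slc1a3*, a transporter of astrocytes, rose by 1.06 (edgeR adjusted p = 0.0351). The call of *Slc1a3* was lost when any 1 of control embryos 1, 2 and 3 or of *Eed-cKO* embryos 1, 4, 5, 6 and 7 was left out (adjusted p 0.0520 to 0.0870).

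**Figure D3:**
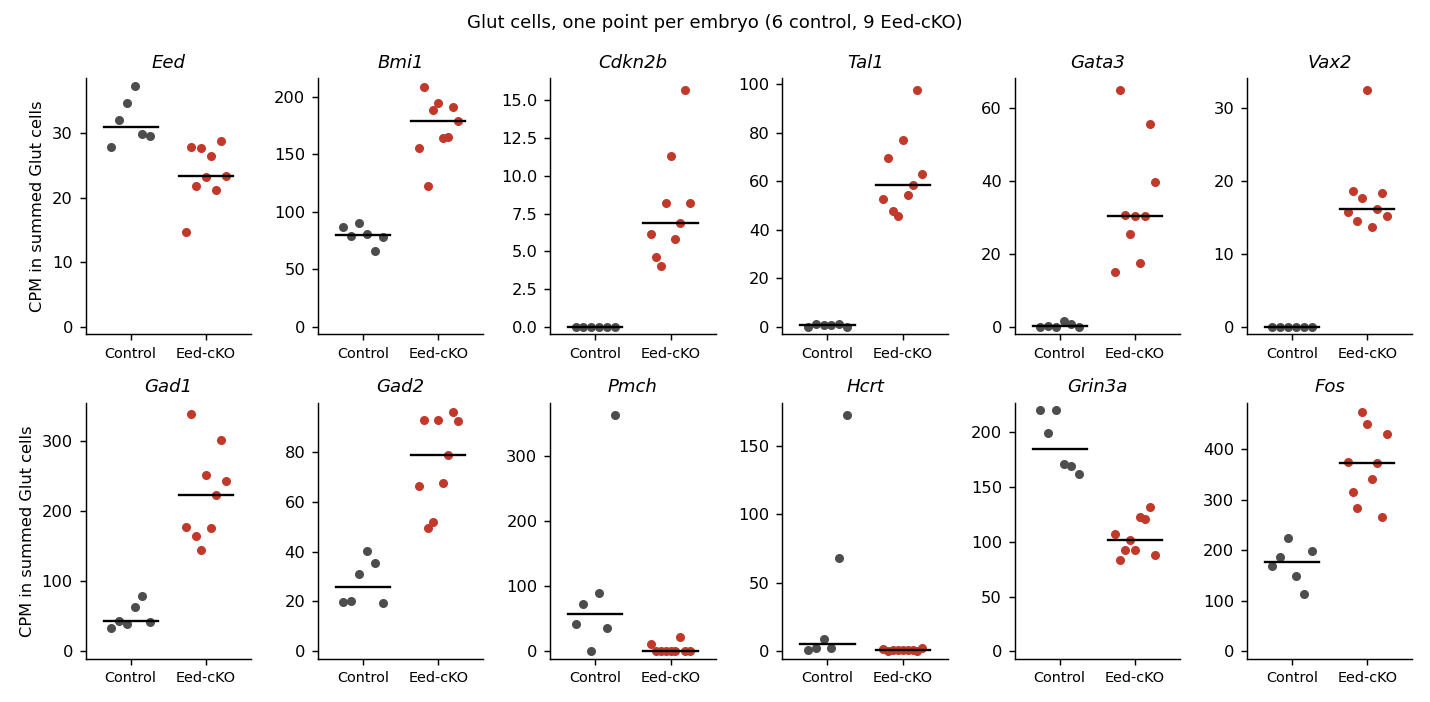
CPM of 12 genes in summed Glut cells, 1 point per embryo with the median as a bar, each panel on its own linear axis. *Bmi1*, *Cdkn2b*, *Tal1*, *Gata3*, *Vax2*, *Gad1*, *Gad2*, *Grin3a* and *Fos* do not overlap between the genotypes, *Eed* does, and *Pmch* and *Hcrt* stand far apart among control embryos, with the highest at 363 and 173 CPM.

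Neuropeptide genes moved both ways: 6 of 32 tested rose and 6 fell (median log2 fold change 0.16). Of all genes tested, 5.46% rose and 4.68% fell. DESeq2 called 4 higher and 3 lower and did not call *Pomc* (adjusted p = 0.106), *Sst* (0.0694), *Grp* (0.0544), *Crh* (0.143) or *Npvf* (0.217). The largest falls were in peptides of the lateral hypothalamus. *Hcrt*, the hypocretin gene of arousal neurons, was at 0.935 to 173 CPM in control (median 5.61) and 0 to 2.34 CPM in *Eed-cKO* (median 0.976), with 890 against 14 UMIs (log2 -5.31 ± 1.06, edgeR adjusted p = 0.00176). *Pmch*, the melanin-concentrating hormone gene, was at 0.705 to 363 CPM in control (median 57.2) and 0 to 22.4 CPM in *Eed-cKO* (median 0.412; log2 -4.50 ± 0.77, edgeR adjusted p = 0.000334). In both genes control embryo 6 was the highest and the groups overlapped. Without control embryo 6 the log2 fold change was -3.89 for *Hcrt* and -3.40 for *Pmch*, and both were still called (edgeR adjusted p = 0.00411 and 0.00109), and without *Eed-cKO* embryo 7, the highest mutant for *Pmch*, it was -5.66 for *Pmch*.

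*Oxt*, the oxytocin gene, was 5.27 to 279 CPM in control (median 153) and 1.61 to 51.4 CPM in *Eed-cKO* (median 4.64; log2 -2.77 ± 0.60, edgeR adjusted p = 0.00316). *Grp*, the gastrin-releasing peptide gene, fell from a median of 23.8 to 7.71 CPM (log2 -1.33 ± 0.32). *Npvf*, a peptide of the dorsomedial nucleus (log2 -3.56 ± 0.94, edgeR adjusted p = 0.0154), and *Crh*, the corticotropin-releasing hormone gene (log2 -1.82 ± 0.53, edgeR adjusted p = 0.0283), were called on thin data. Without control embryo 6, which was the highest for *Crh* at 72.9 CPM, the fold change of *Crh* was -0.95 on the log2 scale (edgeR adjusted p = 0.205) and that of *Npvf* -2.75 (0.0682), while without *Eed-cKO* embryo 7 that of *Npvf* was -5.16. The call of *Crh* was also lost without *Eed-cKO* embryo 1 or 4 (0.0554 and 0.0583). *Slc6a3*, the dopamine transporter gene, was the 1 called gene of 9 in the monoamine and acetylcholine list, where 10.1% of all genes tested were called. It fell from 0.444 to 19.7 CPM to 0 to 2.42 CPM (log2 -2.92 ± 0.74, edgeR adjusted p = 0.0117, and -2.32 without control embryo 5). Its log2 fold change was -1.12 in cells with at least 2 *Slc17a6* UMIs (edgeR adjusted p = 0.284), -2.27 with sex as a covariate (0.0631), -2.09 after thinning (0.0903) and -0.68 with libraries as samples in limma-voom with TREAT (0.481).

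The 6 rises were of 1.23 to 1.71 on the log2 scale. *Pnoc*, the prepronociceptin gene that is often found in GABAergic cells, went from 21.2 to 48.5 CPM to 58.9 to 111 CPM with no overlap (log2 1.23 ± 0.15, edgeR adjusted p = 2.64e-06). *Cartpt* rose from a median of 20.7 to 56.2 CPM (log2 1.295 ± 0.26), *Pomc* from 9.52 to 29.2 CPM (1.45 ± 0.38), *Sst* from 70.3 to 172 CPM (1.46 ± 0.37) and *Nmu* from 3.43 to 7.26 CPM (1.71 ± 0.42; 1.12 without *Eed-cKO* embryo 4), all with overlapping embryos. *Npw*, the neuropeptide W gene, rose from 1.84 to 5.06 CPM (log2 1.46 ± 0.42), a call lost without control embryo 1 or 3 or *Eed-cKO* embryo 9 (edgeR adjusted p 0.0508 to 0.0616). *Cartpt* and *Pomc* mark appetite-restraining cells of the arcuate nucleus, and *Sst* is the somatostatin gene.

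Receptor, synapse and axon genes were called lower more often than higher, where 4.68% of all genes tested fell and 5.46% rose. Of 24 glutamate receptor genes none rose and 6 fell (median log2 fold change -0.10), and no embryo overlapped for *Grin3a*, *Grik1* or *Grm7*. *Grin3a*, an NMDA receptor subunit of immature synapses, was 162 to 220 CPM in control (median 185) and 83.5 to 131 CPM in *Eed-cKO* (median 101; log2 -0.84 ± 0.10, edgeR adjusted p = 1.36e-06). *Grik1*, a kainate receptor subunit, went from 66.0 to 96.6 CPM to 32.2 to 64.9 CPM (log2 -0.83 ± 0.11, edgeR adjusted p = 1.52e-05), and *Grm7*, a presynaptic metabotropic receptor, from 41.5 to 67.5 CPM to 21.8 to 38.3 CPM (log2 -0.78 ± 0.12). *Grm8* (log2 -0.78 ± 0.23) and *Grm5* (-0.60 ± 0.12), also metabotropic receptors, fell with overlap. The call of *Grm8* was lost without control embryo 3 or 6 or *Eed-cKO* embryo 1, 5 or 6 (edgeR adjusted p 0.0605 to 0.0830).

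Among 17 GABA and glycine receptor genes 8 fell and 1 rose (median -0.34), where 4.68% of all genes tested fell and 5.46% rose. *Glra2*, a glycine receptor subunit, fell from a median of 166 to 121 CPM (log2 -0.53 ± 0.14), a call lost without control embryo 3 (edgeR adjusted p = 0.0752). *Gabrb2* fell from a median of 285 to 202 CPM (log2 -0.49 ± 0.10) and *Gabra3* from 87.8 to 58.6 CPM (log2 -0.52 ± 0.10), and *Gabrg1* fell by 0.46 and *Glrb* by 0.41 on the log2 scale. The call of *Glrb* was lost without control embryo 1, 2, 4 or 6 or *Eed-cKO* embryo 1, 3, 4 or 5 (edgeR adjusted p 0.0523 to 0.0969). *Gabra2* rose from 14.4 to 23.9 CPM (log2 0.74 ± 0.21), a call lost without control embryo 3 (edgeR adjusted p = 0.0548). With library size in place of TMM, 5 of the 17 were called lower and 1 higher. Of 32 synapse genes 7 fell and none rose (median -0.26), where 4.68% of all genes fell, and 14 fell without the control library of 1207 cells. *Syt1*, the calcium sensor of release, fell by 0.44 on the log2 scale and *Syn1*, a synaptic vesicle protein, by 0.37, both without overlap (edgeR adjusted p = 0.00476 and 0.000867). *Nlgn2* fell by 0.38 and *Nrxn2* by 0.33, which encode adhesion proteins of the synapse, and the call of *Nrxn2* was lost without control embryo 1, 2 or 4 or *Eed-cKO* embryo 5 or 9 (edgeR adjusted p 0.0504 to 0.104). Of 39 axon guidance genes 5 fell and 2 rose (median -0.07), but with library size in place of TMM 3 fell and 5 rose, and without the control library of 1207 cells 8 fell and 3 rose. The clearest falls were in the receptors *Epha5*, from 88.9 to 181 CPM to 54.7 to 77.9 CPM (log2 -0.92 ± 0.13), and *Epha4*, from 49.5 to 92.5 CPM to 18.6 to 49.2 CPM (log2 -0.72 ± 0.13), and in the netrin-like *Ntng1* (log2 -1.07 ± 0.19). The smaller calls were in the plexin genes *Plxnc1* (log2 -0.31 ± 0.09), lost without control embryo 1, 2, 3 or 6 or *Eed-cKO* embryo 1 or 3 (edgeR adjusted p 0.0631 to 0.0976), *Plxna1* (-0.29 ± 0.08), lost without control embryo 1, 3 or 4 (0.0579 to 0.0644), and *Plxnd1* (1.49 ± 0.45), lost without control embryo 1, 2, 4 or 6 or *Eed-cKO* embryo 1, 4, 5, 6 or 7 (0.0582 to 0.0870). The same held for the semaphorin gene *Sema3f* (0.55 ± 0.16), lost without control embryo 1, 3 or 6 or *Eed-cKO* embryo 3 (edgeR adjusted p 0.0529 to 0.0734). *Plxnc1* shares exon positions with *Gm48718*. Of the 10 neuron markers, *Stmn2* fell by 0.31 on the log2 scale (edgeR adjusted p = 0.000983) and 9 had no call.

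**Figure D4:**
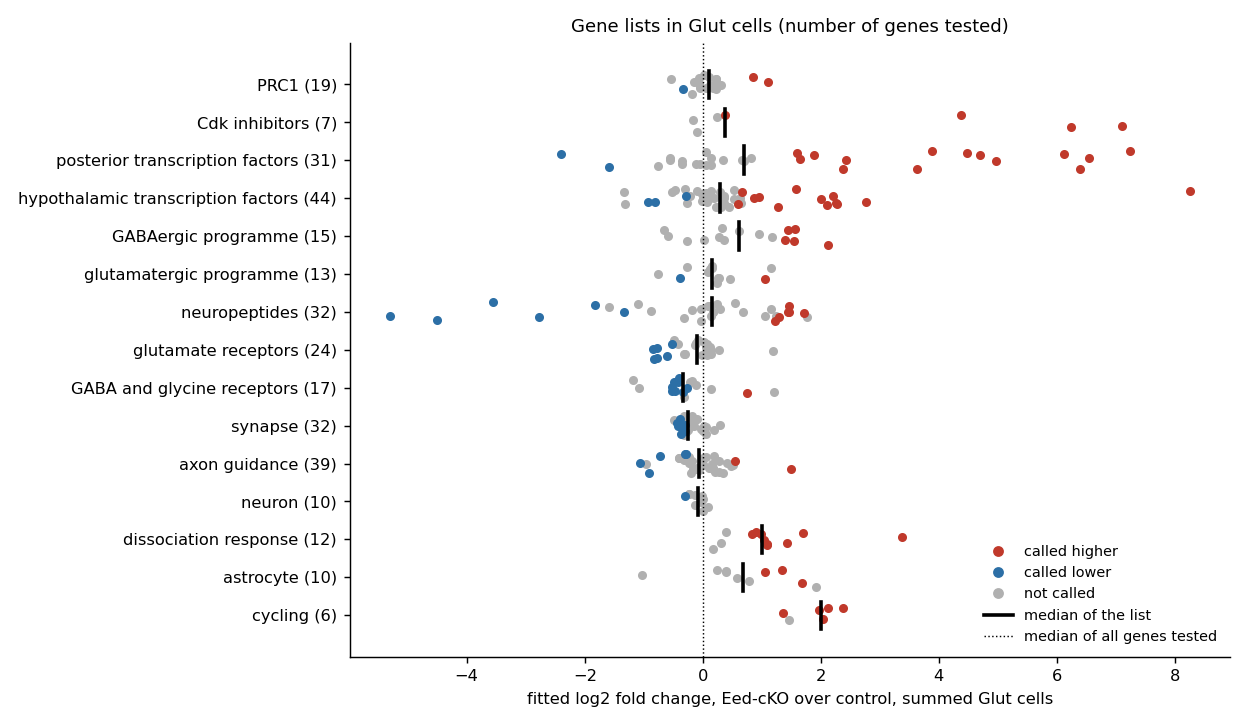
Fitted log2 fold change of each tested gene in 15 lists, with genes called higher in red, called lower in blue and not called in grey; the bar is the median of the list and the dotted line that of all genes tested. Receptor and synapse lists lie left of the line, with medians from -0.34 to -0.10, and the lists of posterior factors, GABAergic genes and dissociation response lie right of it, with medians of 0.70, 0.62 and 1.01.

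Among single genes that were not on a list, the largest falls with no overlap were led by *Myo7a*, a motor protein gene of sensory hair cells, whose start is printed above. It was 16.9 to 28.4 CPM in control (median 22.2) and 0 to 6.17 CPM in *Eed-cKO* (median 0.976; log2 -3.39 ± 0.34, edgeR adjusted p = 1.12e-07). The next were *Cdh9* (log2 -1.63 ± 0.28), a synaptic cadherin, *Fign* (-1.33 ± 0.18), *Rps13* (-1.18 ± 0.12), a ribosomal protein gene, *Oprk1* (-1.12 ± 0.20), the kappa opioid receptor gene, and *Fam103a1* (-1.11 ± 0.11). *Arl6ip1* (-1.01 ± 0.07), *Car10* (-0.99 ± 0.12), the synapse organiser *Cbln2* (-0.97 ± 0.12), *Pgap2* (-0.92 ± 0.12) and *B3glct* (-0.91 ± 0.12) completed the falls of the naming rule, with *Epha5*. *Rps13* stood at 60.3 CPM in *Eed-cKO* embryo 2 and at 218 to 273 CPM in the other 8 mutants, against 482 to 580 CPM in control. *Myo7a* (chr7:98051060-98119524), *Rps13*, *Arl6ip1* and *Pgap2* lie on the same chromosome as *Eed* and within 30 Mb of it, and values for that region stand in the closing section.

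Genes of other cell types and of tissue handling moved with the genotype in the same sums. Of 12 genes of the dissociation response, which cells switch on when tissue is taken apart and neurons also on firing, 9 rose and none fell. Over all genes tested, 5.46% rose. The summed level of the 12 genes was 546 to 804 CPM in control and 962 to 1719 CPM in *Eed-cKO*. *Fos* rose from 113 to 224 CPM to 266 to 474 CPM (log2 1.09 ± 0.13), *Fosb* from 11.9 to 51.4 CPM to 62.0 to 115 CPM (log2 1.43 ± 0.22) and *Ier2* from a median of 15.2 to 42.0 CPM (log2 1.69 ± 0.16), none with overlap. *Nr4a1* rose by 1.09 ± 0.16, *Junb* by 1.03 ± 0.16 and *Atf3* by 3.38 ± 0.35 on the log2 scale. The part of tissue handling in these levels was not tested.

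Cycling markers rose in 5 of 6 (median log2 fold change 2.00), where 5.46% of all genes rose, with a summed level of 3.31 to 21.8 CPM in control and 9.28 to 79.2 CPM in *Eed-cKO*, and *Top2a* rose from a median of 2.15 to 6.86 CPM (log2 2.04 ± 0.42). The others were *Ccnb1* (2.37 ± 0.68), *Ube2c* (2.12 ± 0.55), *Cdk1* (1.96 ± 0.62) and *Birc5* (1.36 ± 0.40), each with at most 89 UMIs in *Eed-cKO*. Without control embryo 5 *Ccnb1* was at 3.34 and *Ube2c* at 2.89. The call of *Ccnb1* was lost without control embryo 1, 2, 3 or 6 or *Eed-cKO* embryo 5 or 7 (edgeR adjusted p 0.0508 to 0.0592), that of *Cdk1* without the same control embryos or *Eed-cKO* embryo 4, 5, 8 or 9 (0.0502 to 0.135), and that of *Birc5* without control embryo 2 or *Eed-cKO* embryo 4 or 5 (0.0698 to 0.0755).

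Astrocyte markers rose in 3 of 10, where 5.46% of all genes tested rose, with sums of 168 to 746 and 46.4 to 784 CPM. Beside *Slc1a3* they were the water channel gene *Aqp4* (log2 1.67 ± 0.48), lost without control embryo 2 or 3 or *Eed-cKO* embryo 1 or 4 (edgeR adjusted p 0.0555 to 0.108), and *Aldh1l1* (1.35 ± 0.38), which shares exon positions with *Gm45901*, lost without control embryo 1, 2, 3 or 6 or *Eed-cKO* embryo 4 (0.0505 to 0.0558). Tanycyte and ependymal markers rose in 4 of 9, with sums of 72.6 to 162 and 78.8 to 390 CPM. *Vim* rose by 1.18 ± 0.18 and *Nes* by 1.71 ± 0.32 on the log2 scale, *Rax* is given above, and *Col23a1* (0.95 ± 0.29) lost its call without control embryo 3, 4 or 6 or *Eed-cKO* embryo 4, 5 or 6 (edgeR adjusted p 0.0578 to 0.0970).

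Oligodendrocyte precursor markers rose in 1 of 5, with sums of 3.17 to 40.1 and 4.64 to 74.6 CPM. Vascular and immune markers rose in 2 of 10 tested, with sums of 4.23 to 32.0 and 10.7 to 62.2 CPM. Over all genes tested, 5.46% rose. *Cspg4*, on both lists, rose by 1.91 ± 0.56, and by 1.25 without *Eed-cKO* embryo 4 (edgeR adjusted p = 0.142), and its call was also lost without control embryo 1, 2, 3 or 6 (0.0577 to 0.0686). *Dcn*, a gene of connective tissue, rose by 2.31 ± 0.73 and stood at 3.95 without control embryo 3, while its call was lost without any other control embryo or without *Eed-cKO* embryo 3, 4 or 5 (edgeR adjusted p 0.0637 to 0.148). DESeq2 called 3 of 6 cycling, 1 of 10 astrocyte, 4 of 9 tanycyte and ependymal and no oligodendrocyte precursor or vascular and immune markers higher. Without the control library of 1207 cells 5 astrocyte, 2 oligodendrocyte precursor and 4 vascular and immune markers rose.

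In cells with at least 2 *Slc17a6* UMIs fewer genes were called over the whole table, 768 (5.44%) in place of 1475. No cycling marker was called there, with a median log2 fold change of 0.87 (1.02 for *Top2a*), and 1 of 9 tanycyte and ependymal markers rose (median 0.061; 1.17 for *Nes*, edgeR adjusted p = 0.0720). No astrocyte or oligodendrocyte precursor marker was called, with medians of 0.087 over 9 genes and 0.11 over 5. Of the GABAergic genes 4 of 15 rose (median 0.65), and of the dissociation response genes 9 of 12 (median 0.90).

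Pituitary and choroid plexus markers rose in 4 of 5 tested (1 of 5 with DESeq2), where 5.46% of all genes tested rose. Their sums were 2.41 to 7.03 CPM in control and 3.50 to 4536 CPM in *Eed-cKO*. The highest was *Eed-cKO* embryo 8, where *Ttr*, a choroid plexus transcript, reached 4491 CPM against at most 3.29 CPM in the other 8. Without that embryo the log2 value of *Ttr* was 0.37 (edgeR adjusted p = 0.758), and without *Eed-cKO* embryo 5 that of *Cga*, a pituitary hormone subunit, was 0.47 (0.740). *Cga* was also no longer called without control embryo 1, 2, 3, 4 or 6 (adjusted p up to 0.0816). *Clic6*, a choroid plexus gene, rose by 3.01 ± 0.88 on the log2 scale, by 1.26 without *Eed-cKO* embryo 8 (edgeR adjusted p = 0.185), and lost its call without control embryo 2, 3 or 6 (up to 0.0614). *Pitx1*, a pituitary and hindlimb regulator, was at 0 in all control embryos and at 0 to 5.22 CPM in *Eed-cKO* (median 3.91), at least 22.0-fold higher. It passed the filter on low counts only through the mutant cells, so its place among the rises is a description. The 9 genes of the exclusion chose the cells and were not tested.

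The genotype effect differed between Glut and GABA cells for 139 of 14930 genes (0.931%; class by genotype interaction with the embryo as a block, edgeR quasi-likelihood test, Benjamini-Hochberg). The effect was more positive in Glut cells for 90 genes and more negative for 49. GABA cells met the same rule with the transporters exchanged. Levels in this comparison were scaled over both classes together. *Gad1* rose from 50.8 ± 17.5 to 226 ± 65.3 CPM in Glut cells and went from 991 ± 92.2 to 680 ± 127 CPM in GABA cells (difference of the log2 effects 2.60 ± 0.14, edgeR adjusted p = 2.32e-23). *Gata3* was at 0.472 CPM in control Glut cells and 26.0 CPM in control GABA cells, and at 34.8 and 52.2 CPM in *Eed-cKO* (difference 4.75 ± 0.47; 5.51 without control embryo 4). *Tal1* was at 0.655 and 13.2 CPM in control and 63.7 and 112 CPM in *Eed-cKO* (difference 3.24 ± 0.44), so both classes rose and the rise was steeper in Glut cells.

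The same held for *Slc30a3*, a zinc transporter of synaptic vesicles (1.62 and 16.1 CPM in control Glut and GABA cells, 31.6 and 49.6 CPM in *Eed-cKO*, difference 2.66 ± 0.38), and for *Gata2* (difference 4.49 ± 0.91; 3.74 without control embryo 6). *Pmaip1*, a gene of programmed cell death, rose in Glut cells from 0.345 to 12.2 CPM and stood at 32.6 and 33.4 CPM in GABA cells (difference 4.46 ± 0.50). Thus the control level of these genes was higher in GABA cells, and the ratio between the classes was smaller in *Eed-cKO*.

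In the other direction were genes whose control level was higher in Glut cells and whose genotype effect was more positive in GABA cells. *Tfap2b* was at 10.0 CPM in control Glut and 0.200 CPM in control GABA cells, and at 60.3 and 71.1 CPM in *Eed-cKO* (difference -6.36 ± 0.74; -7.78 without control embryo 3 and -5.74 without control embryo 6). Its control Glut level came from 6 of 2472 cells (0.243%), so it does not describe control Glut cells at large. *Tbr1*, a regulator of glutamatergic neurons, was at 26.0 and 30.9 CPM in Glut cells and went from 1.35 to 28.5 CPM in GABA cells (difference -4.16 ± 0.43). *Shox2* (difference -4.09 ± 0.38; -5.05 without control embryo 5), *Mab21l1* (-4.14 ± 0.64), *Foxa2* (-3.45 ± 0.61) and *Neurod2* (-3.27 ± 0.78) followed. *Tfap2b* and *Mab21l1* were called higher within Glut cells, and *Tbr1*, *Shox2*, *Foxa2* and *Neurod2* had no call there. The difference for *Neurod2* (edgeR adjusted p = 0.0145) was no longer called without control embryo 1 or 2 or *Eed-cKO* embryo 3, and was -5.72 without control embryo 6. Of 29 tested *Hox* genes none was called in this comparison by edgeR or DESeq2 and none had an unadjusted p under 0.05: their control sums were at 0 in nearly all cases, so a difference of folds could not be estimated. Their levels are given instead by examples: *Hoxc10* was at 40.1 CPM in Glut and 81.2 CPM in GABA cells of *Eed-cKO*, *Hoxa9* at 16.8 and 52.0 CPM, and *Vax2*, for which the same limit holds, at 18.2 and 34.8 CPM.

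**Figure D5:**
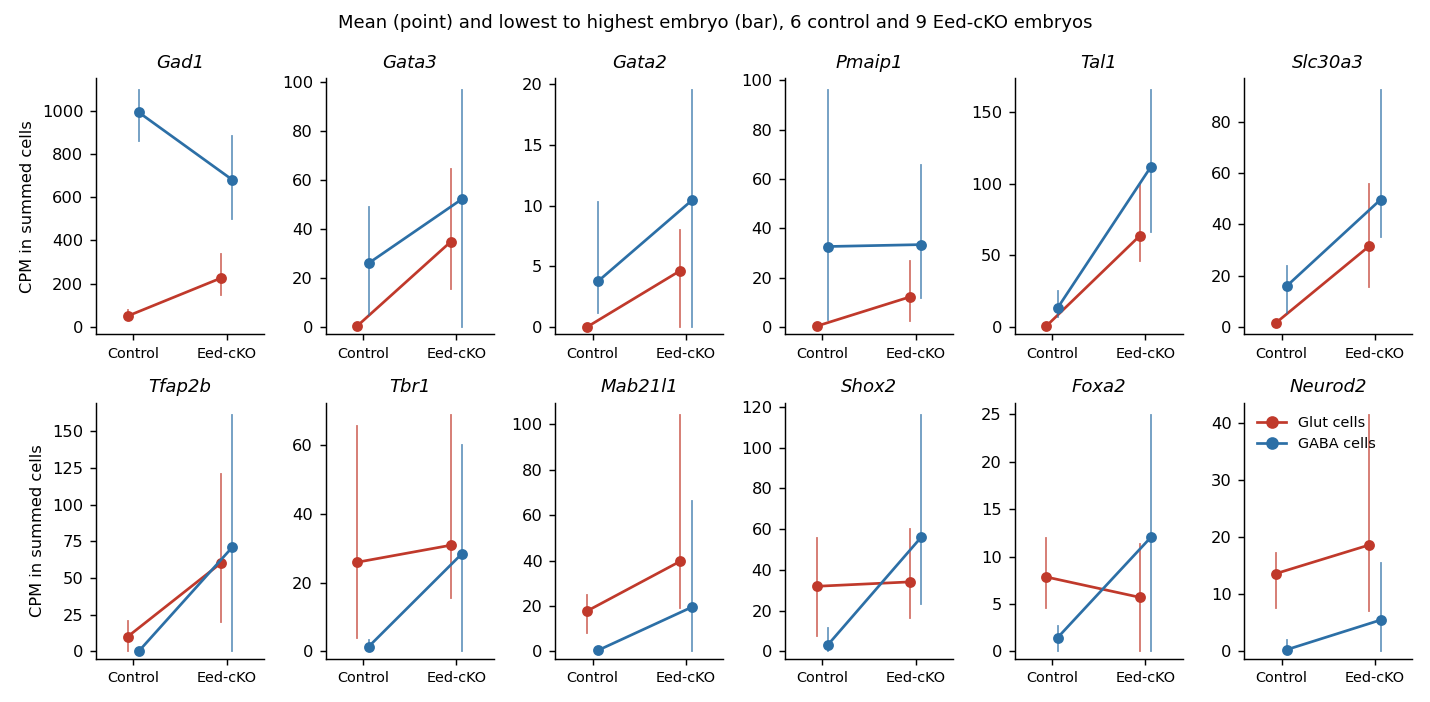
Mean CPM (points) and lowest to highest embryo (bars) of 12 genes in summed Glut cells (red) and GABA cells (blue), for 6 control and 9 *Eed-cKO* embryos, each panel on its own linear axis. In the upper row the control level is higher in GABA cells and the Glut mean rises, and in the lower row the control level is higher in Glut cells, as for *Tfap2b* at 10.0 against 0.200 CPM.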

How the data were processed

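Single cells of the hypothalamus of 6 control and 9 *Eed-cKO* embryos (48 libraries) had been sequenced on a droplet system, and the submitters' processing notes name STAR 2.5.2b, SAMtools 1.3 and mm10. The authors deposited raw counts (UMIs per gene and cell, 16510 genes, 14121 cells of at least 601 UMIs), joined over libraries with no normalization. The strand used in counting is not given in the sources used here.

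Genotype and embryo were read from the cell name prefix, as matched to the sample labels. Counts were summed per embryo, and genes with at least 15 UMIs over the embryos and 2 in 1 embryo were tested by the quasi-likelihood test of edgeR 4.0.16 (R 4.3.3) with TMM factors and Benjamini-Hochberg adjustment at 0.05. This filter replaced the study's filter on a median log-CPM of 1.5. With more mutant than control embryos, that median can drop genes found in control alone. Glut and GABA cells were compared with the embryo as a block. Shares were compared by two-sided exact permutation tests over embryos (scipy 1.17.1), with exact 95% binomial intervals that cover counting error only. SE is the log2 fold change divided by the square root of the F statistic. Doublets were kept. Exon overlaps are from GENCODE vM21.

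The genes, lists and rule were chosen with earlier results of these data known. The text names up to 6 called members of each list in each direction by log2 fold change, genes the study names for these cells, the 12 largest rises and falls without overlap that reach 10 CPM on average in 1 genotype, and the 6 largest differences between Glut and GABA cells in each direction; other named genes were chosen after their values were seen, and some genes of the rule are not reported here. The alternatives were library size and RLE scaling, other filters on low counts, DESeq2 1.42.0, limma-voom 3.58.1 with TREAT at 0.18, libraries or litters as samples, sex as a covariate, other limits on cells, thinning to 2000 UMIs, removal of the 6% of cells per library with the highest Scrublet score (scanpy 1.11.5), and leaving out each embryo.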

Additional observations from a re-analysis of the deposited data

Results flagged for a closer look

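Single embryos stood apart from the others of their genotype in 34 of 235 gene and group pairs tested with Dixon's gap test, 12 in control and 22 in *Eed-cKO* embryos. For normally distributed values about 1 in 20 such groups is flagged by chance. Some groups here held counts near 0, for which that rate need not hold, as for *Hoxa10* in control, flagged on 1 UMI. *Eed-cKO* embryo 8 accounted for several of them: *Ttr* stood at 4491 CPM, *Lhx9* at 125 CPM, *Gbx2* at 39.2 CPM, *Clic6* at 38.3 CPM, and *Tlx1* and *Pax8* at 6.96 CPM each. *Lhx9* and *Gbx2* are genes of the thalamus and its border as well as of the hypothalamus, and *Ttr* is made by choroid plexus. The share of Glut cells with a *Hox* UMI in that embryo was 35.0%, next to 35.9% in embryo 9.

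*Eed-cKO* embryo 2, which had 53 Glut cells, stood apart for *Suz12* at 92.8 CPM, *Cbx8* at 27.8 CPM, *Epha4* at 18.6 CPM, *Rps13* at 60.3 CPM, *Lhx8* at 23.2 CPM and *Oprk1* at 0 CPM. *Eed-cKO* embryo 5 stood apart for *Cga* at 45.8 CPM, *Vax2* at 32.4 CPM, *Top2a* at 25.2 CPM, *Prdm13* at 7.71 CPM and *Rax* at 7.20 CPM. In *Eed-cKO* embryo 7 *Pmch* stood at 22.4 CPM and *Npvf* at 2.49 CPM, in embryo 4 *Nmu* stood at 33.8 CPM and *Cspg4* at 9.47 CPM, and in embryo 3 *Ebf2* stood at 67.0 CPM.

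Control embryo 6 stood apart for the peptide genes *Pmch*, at 363 CPM, and *Crh*, at 72.9 CPM. Control embryo 1 stood apart for *Ezh2* at 58.3 CPM and for *Hoxa10* at 0.312 CPM, which was its single *Hox* UMI. Control embryo 2 stood apart for *Ebf2* at 80.1 CPM and *Pax2* at 0.904 CPM, control embryo 3 for *Meis1* at 9.17 CPM and *Dcn* at 4.59 CPM, control embryo 4 for *Lhx8* at 3.10 CPM, and control embryo 5 for *Rps13* at 580.0 CPM, *Cbx8* at 10.2 CPM and *Rax* at 1.76 CPM.

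The genotype effect differed between Glut and GABA cells for the 12 genes named in the report, as tested by the interaction in edgeR with Benjamini-Hochberg adjustment over 14930 genes. The effect in Glut cells minus that in GABA cells, on the log2 scale, was 4.75 for *Gata3*, 4.49 for *Gata2*, 4.46 for *Pmaip1*, 3.24 for *Tal1*, 2.66 for *Slc30a3* and 2.60 for *Gad1*. It was -6.36 for *Tfap2b*, -4.16 for *Tbr1*, -4.14 for *Mab21l1*, -4.09 for *Shox2*, -3.45 for *Foxa2* and -3.27 for *Neurod2*. For *Gata2*, whose control Glut cells held no UMI, the difference depends on the prior count of the fit and is no bound. Control GABA levels of *Tfap2b*, *Mab21l1* and *Neurod2* and control Glut levels of *Gata3*, *Pmaip1* and *Tal1* were also near the floor. The size of those differences is therefore uncertain.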

How the results depend on the processing

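Over 19 alternatives and the 15 fits that left out 1 embryo, the 135 named results gave 4355 comparisons, of which 4000 kept their direction and side of the threshold, 339 lost a call, 8 gained one and 8 turned direction. The share of Glut cells turned to 0.308 points higher in *Eed-cKO* when classes were read after thinning, which leaves fewer transporter UMIs to read. *Suz12*, never called, turned to 0.0334 with library size, 0.00453 with RLE, 0.00234 with no filter, 0.00386 with filterByExpr, 0.0457 after thinning, and ran from -0.0560 to 0.0333 with 1 embryo left out, turning without control embryo 1 and *Eed-cKO* embryo 4. *Cspg4* turned to -0.00490 after thinning. Genes called numbered 424 with limma-voom and TREAT, which asks for a minimum change, 768 with at least 2 *Slc17a6* UMIs and 672 after thinning. For the last 2 the cause was not tested. With libraries as samples 3178 genes were called, but libraries of the same embryo are not independent replicates, so that count is no support. *Hox* genes called were 18 with the study's filter, 18 with limma-voom and 13 with filterByExpr, which is every *Hox* gene those filters keep. Genes whose effect differed between Glut and GABA cells were 90 with DESeq2 and 86 after thinning.

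With 1 embryo left out, genes called ran from 989 (without control embryo 3) to 1890 (without control embryo 5), *Hox* genes called from 27 to 28, the difference in the share of Glut cells from -5.72 to -4.38 points, the *Hox* share in *Eed-cKO* from 22.8 to 25.2%, its difference from GABA cells from -20.9 to -16.8 points, and the genes that differ between classes from 120 to 179. Without the control library of 1207 cells, an alternative chosen after seeing the data, 2059 genes were called, and 2173 without *Eed-cKO* embryo 2 as well. Of the named results, 32 calls were lost with limma-voom and TREAT, among them *Eed*, *Gbx2*, *Pomc*, *Oxt*, *Crh*, *Syt1* and *Syn1*, 18 with libraries as samples in that test, among them *Eed*, *Prdm13*, *Pomc*, *Hcrt*, *Oxt*, *Npvf* and *Slc6a3*, 31 after thinning, 29 with at least 2 *Slc17a6* UMIs, 15 with litters as samples, 13 with exclusion at 1 of the 9 genes, and 1 to 9 under 8 others. DESeq2 lost 19: *Eed*, *Gbx2*, *Ebf2*, *Slc1a3*, *Pomc*, *Sst*, *Crh*, *Grp*, *Npvf*, *Ttr*, *Cga*, *Glrb*, *Aqp4*, *Cspg4*, *Ccnb1*, *Cdk1*, *Dcn*, *Clic6* and the difference of *Neurod2* between classes. After thinning *Gata2* and *Neurod2* no longer differed between classes by the test. No paired analysis was possible because no litter held both genotypes and embryo numbers name embryos only. Depth limits low genes most in *Eed-cKO* embryo 2, with 210635 UMIs.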

Other observations

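*Tcf7l2*, a regulator of thalamic and habenular neurons that no list held and that was chosen after its values were seen, had one of the widest spreads in Glut cells. It was at 139 to 1099 CPM in control embryos (median 731) and 33.2 to 468 CPM in *Eed-cKO* embryos (median 64.9), where embryo 8 was the highest (log2 -2.67 ± 0.44, edgeR adjusted p = 0.000220). *Kitl*, the ligand of the receptor *Kit*, was at 50.6 to 449 CPM in control and 18.6 to 219 CPM in *Eed-cKO*, again highest in embryo 8 (log2 -2.03 ± 0.41, edgeR adjusted p = 0.00171). The other 8 *Eed-cKO* embryos lay below every control embryo for both genes. *Gbx2* and *Lhx9*, which are also thalamic genes, were highest in the same mutant embryo. The genotype effect was more negative in Glut than in GABA cells, by -2.85 ± 0.26 for *Tcf7l2* and -2.73 ± 0.29 for *Kitl* on the log2 scale. In GABA cells the mean went from 149 to 145 CPM for *Tcf7l2* and rose from 44.4 to 71.8 CPM for *Kitl*.

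Genes on chromosome 7 near *Eed* were called more often than genes farther along the chromosome, a pattern chosen after its values were seen and given with no test. Of 295 tested genes within 30 Mb of *Eed*, 15.9% were called and 4.75% had embryos that did not overlap, against 7.96% and 0.663% of 754 genes on the rest of chromosome 7, and 10.2% and 1.52% of all genes with a known position. The largest rise there was in *Hddc3*, a nucleotide hydrolase gene, from 14.7 CPM (11.3 to 18.7) in control to 105 CPM (95.1 to 119) in *Eed-cKO* Glut cells. Its mean also went from 13.7 to 109 CPM in GABA cells and from 18.2 to 90.4 CPM in cells with neither transporter. *Rps13* went from 511 to 218 CPM, *Arl6ip1* from 580 to 290 CPM and *Rps15a* from 426 to 226 CPM, while *Lmo1* went from 18.4 to 48.4 CPM and *Stard10* from 9.04 to 21.5 CPM. Among the genes named in the report, *Myo7a* and *Pgap2* lie in this region too. The embryos were of a mixed B6:129S1 background and shared no litter.

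*Nr2f2*, a regulator of neuronal position and fate that lies in the same region, was at 296 to 394 CPM in control and 139 to 289 CPM in *Eed-cKO* Glut cells, with no overlap. It went from 594 to 270 CPM in GABA cells.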
